A study of Homo sapiens with 12 samples.

Results

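HAPSTR1, GNAS and SRF were represented by 11 of the 9958 deposited m7G peak regions, 1 in HAPSTR1, 5 in GNAS and 5 in SRF. The genes were picked from earlier results of these data because the ratio of immunoprecipitate over input rose in METTL1 knockdown cells in a region of each that had reads in every input library. All regions overlapping their RefSeq gene bodies (GRCh38) by at least 1 base were then taken. The change in enrichment between knockdown and control therefore chose the genes, and it is described below without a test.

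The libraries are labelled THP-1, a cell line of a human monocytic leukemia. It attaches and takes on macrophage features when given PMA, a phorbol ester, used here at 100 ng/ml for 48 h in every group. The knockdown cells (KD) carried a short hairpin against METTL1, and the control (NC) is named in the labels by that abbreviation alone. Polyadenylated RNA was profiled by m7G meRIP-seq, in which RNA fragments are pulled down for 7-methylguanosine (IP) and sequenced beside a second library taken here as the input (IN). The 4 groups, KD IP, NC IP, KD IN and NC IN, held 3 libraries each. The labels do not say whether numbered libraries came from separate cultures, so p values measure the spread between these libraries, which may be technical. Neither METTL1 nor its partner WDR4 had a peak (0 each), so the targeted gene was not checked here.

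Marker genes set the KD and NC libraries apart, and the NC libraries went against what is typical of the labelled line. Of 29 genes typical of the HEK293 line or of epithelial and neural cells 21 had a region, and they summed to 1225 to 1420 CPM in KD IN, against 10050 to 10777 CPM in NC IN. CPM, counts scaled to the TMM-adjusted total of the tested peak regions, is a relative level. For 17 of these 21 every KD IN library lay below every NC IN library, against 24.6% of all tested regions. For 2 of the 21 every KD IN library lay above, against 20.2% of tested regions. No read was found in KD IN for 8 (LIN28B, KRT18, MAP9, PNMA8A, AKAP12, CCDC8, P3H3 and MAP1A). This list and the macrophage list below were chosen with earlier results of these data known, so their counts are a description and not a test. Of 31 monocyte and macrophage markers 16 had a region, among them CD68, ITGAM, SPI1 and LYZ, and none of the 16 was at 0 in any group. They summed to 4757 to 4934 CPM in KD IN, against 2320 to 2643 CPM in NC IN. Every KD IN library lay above every NC IN library for 11 of the 16, and below for 0. A difference between the cells of the KD and NC libraries and the METTL1 knockdown cannot be told apart in any value of KD over NC below. In bulk libraries a larger share of cells that use a transcript and more RNA per cell cannot be told apart either.

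METTL1 with WDR4 methylates guanosine to m7G in tRNA and has been reported to act at internal sites of other RNAs, while the cap of every mRNA begins with an m7G added by other enzymes. HAPSTR1 encodes a stress-response protein that binds the ubiquitin ligase HUWE1. GNAS encodes the stimulatory G protein alpha subunit, which couples receptors to adenylyl cyclase and cAMP. Its imprinted locus uses several promoters and alternative first exons. SRF is a MADS box transcription factor that binds CArG boxes together with ternary complex factors or MRTF coactivators, and it drives immediate early and actin cytoskeleton genes.

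Over the 12 libraries together, the region with most reads lay near a listed transcript start in HAPSTR1, GNAS and SRF alike. In GNAS that lead was narrow, 11328 reads against 11106 in a region from 58891655 to 58891865, and it came from KD IP. In NC IP, KD IN and NC IN the second region had more reads. The start nearest upstream of each most-read region is shown with its sequence from RefSeq (GRCh38.p14, 250 bases before the start and 50 from it, plus strand). All 3 symbols matched the promoter table. Capitals mark the 50 bases from the listed start, those next to the cap of a transcript that begins there.
HAPSTR1, chr16:9091394-9091693: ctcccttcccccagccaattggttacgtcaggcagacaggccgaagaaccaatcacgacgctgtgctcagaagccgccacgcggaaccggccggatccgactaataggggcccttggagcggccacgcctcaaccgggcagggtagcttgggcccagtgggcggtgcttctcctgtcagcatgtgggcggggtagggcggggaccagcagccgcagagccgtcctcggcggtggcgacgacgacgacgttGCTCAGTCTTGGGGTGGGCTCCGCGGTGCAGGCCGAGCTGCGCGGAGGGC
GNAS, chr20:58888930-58889229: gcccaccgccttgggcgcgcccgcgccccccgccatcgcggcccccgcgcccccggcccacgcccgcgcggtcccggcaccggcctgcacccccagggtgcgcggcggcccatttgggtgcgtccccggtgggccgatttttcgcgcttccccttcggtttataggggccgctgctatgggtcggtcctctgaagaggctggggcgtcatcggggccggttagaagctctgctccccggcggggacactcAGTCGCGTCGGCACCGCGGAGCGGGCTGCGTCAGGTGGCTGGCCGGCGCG
SRF, chr6:43171019-43171318: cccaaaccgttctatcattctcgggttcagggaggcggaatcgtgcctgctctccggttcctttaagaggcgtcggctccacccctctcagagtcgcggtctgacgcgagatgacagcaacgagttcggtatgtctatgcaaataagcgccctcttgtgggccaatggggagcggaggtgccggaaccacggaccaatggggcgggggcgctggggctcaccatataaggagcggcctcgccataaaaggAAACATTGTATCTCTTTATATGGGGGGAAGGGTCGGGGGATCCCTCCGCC

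The HAPSTR1 region covered all 50 capital bases, while the GNAS and SRF regions began beyond them. In the 50 capital bases G and C made up 76% in HAPSTR1, 80% in GNAS and 54% in SRF, against a median of 60% (quartiles 50 and 70%) in 35116 RefSeq windows. The SRF window held 2 CArG boxes, the motif of SRF itself, with their first letters 30 and 10 bases before the start. A CArG box was found in 1.29% of all windows and in neither the HAPSTR1 nor the GNAS window. The GC box GGGCGG, searched on both strands as were all motifs, had 3 matches in HAPSTR1, 1 in SRF and 0 in GNAS, and was in 45% of windows. The core TGACG of the cAMP response element had 2 matches in GNAS and 1 each in HAPSTR1 and SRF (24.6% of windows), and the whole element TGACGTCA had none in these windows (1.85% of windows). The box CCAAT had 3 matches in HAPSTR1, 2 of which overlap on opposite strands, and 2 in SRF (34.6% of windows). The E box CANNTG had 2 matches each in GNAS and HAPSTR1 and 0 in SRF (68.7% of windows), and the box TATAAA 1 each in GNAS and SRF (11.5%). The ETS core GGAA, the core of ternary complex factor sites, had 5 matches in SRF, 2 in HAPSTR1 and 1 in GNAS (95.5%). These matches describe the letters only.

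The 11 regions formed 7 separate places, because the control and knockdown peak sets overlap. HAPSTR1 had a single region of 600 bases (chromosome 16, 9091644 to 9092243, NC set) that began at the first base of the gene. GNAS had an upstream pair (chromosome 20, 58889524 to 58890305 in the NC set, and 58889885 to 58890305 in the KD set) starting 344 and 705 bases after the listed start shown above. That start is 1 of 6 listed for GNAS and is internal, as the wider region began 49776 bases after the first base of the gene. Whether the GNAS regions come from the same transcripts was not tested. GNAS also had a 60-base region (58891416 to 58891475) and a downstream pair that began together 2475 bases after that listed start (58891655 to 58891865 in the KD set, to 58891835 in the NC set). SRF had a 776-base region (chromosome 6, 43171388 to 43172163, KD set) beginning 119 bases after its start, with 2 NC regions inside it. A further pair lay near the 3 prime end of SRF (43180225 to 43180314 and 43180404 to 43180523). All 11 were given on the plus strand and none overlapped another protein-coding gene. The reference gave no exons, so coding sequence and untranslated regions were not told apart.

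Reads were concentrated in parts of the wider regions. In the GNAS upstream pair 99.5% of the reads of the wider region fell in the inner 53.8% of its width. In SRF 94.9% fell in the last 389 bases of the 776-base region (43171775 to 43172163), 50.1% of its width. The nested regions are therefore the same reads counted again, and their values are not independent.

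The HAPSTR1 region had the largest gain of the 3 genes. It had 522, 579 and 577 CPM in the KD IP libraries, against 210.0, 139.5 and 148.5 CPM in NC IP. Input had 114, 150.1 and 169.6 CPM in KD IN, against 94.3, 84.7 and 105 CPM in NC IN. All KD libraries lay above all NC libraries in IP (as in 29.5% of tested regions) and in IN (20.2%), with the smaller gap in input, and 1 NC IP library stood above the other 2. All IP libraries lay above all IN libraries in KD (32.1% of regions) and in NC (30.3%). Mean levels were 559 ± 32 CPM in KD IP and 166 ± 38.4 CPM in NC IP (SD, n = 3 each), and 144.5 ± 28.4 CPM in KD IN and 94.7 ± 10.3 CPM in NC IN. By the edgeR fit IP over input was 3.87-fold in KD and 1.75-fold in NC, a change of 1.14 ± 0.23 (log2, SE).

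The upstream GNAS region behaved in the same direction. In IP it had 1444, 1354 and 1152 CPM in KD libraries, against 478, 352 and 366 CPM in NC libraries. In input it had 419, 424 and 524 CPM in KD, against 316, 205 and 226.5 CPM in NC. KD exceeded NC in every library of either kind (as in 29.5% of tested regions in IP and 20.2% in IN). Again the rise was steeper in IP. IP over input was 2.89-fold in KD and 1.59-fold in NC, a log2 change of 0.86 ± 0.21 (SE), and 0.89 ± 0.21 in the narrower KD-set region.

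The 5 prime SRF region had 1184, 1282 and 1242 CPM in KD IP, against 563, 519 and 435.5 CPM in NC IP. Its input was 596, 706 and 729 CPM in KD IN, against 437, 436 and 435 CPM in NC IN. All KD libraries lay above all NC libraries in IP (as in 29.5% of tested regions) and in IN (20.2%). Relative to the average peak region under TMM scaling, IP over input was 1.16-fold in NC and 1.83-fold in KD, a log2 change of 0.65 ± 0.16 (SE). The inner 389-base region gave a change of 0.61 ± 0.16. The fold within a condition depends on the scaling. Over all regions the median log2 IP over input in NC was 0.13, and 0.42 by library size alone.

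**Figure D1:**
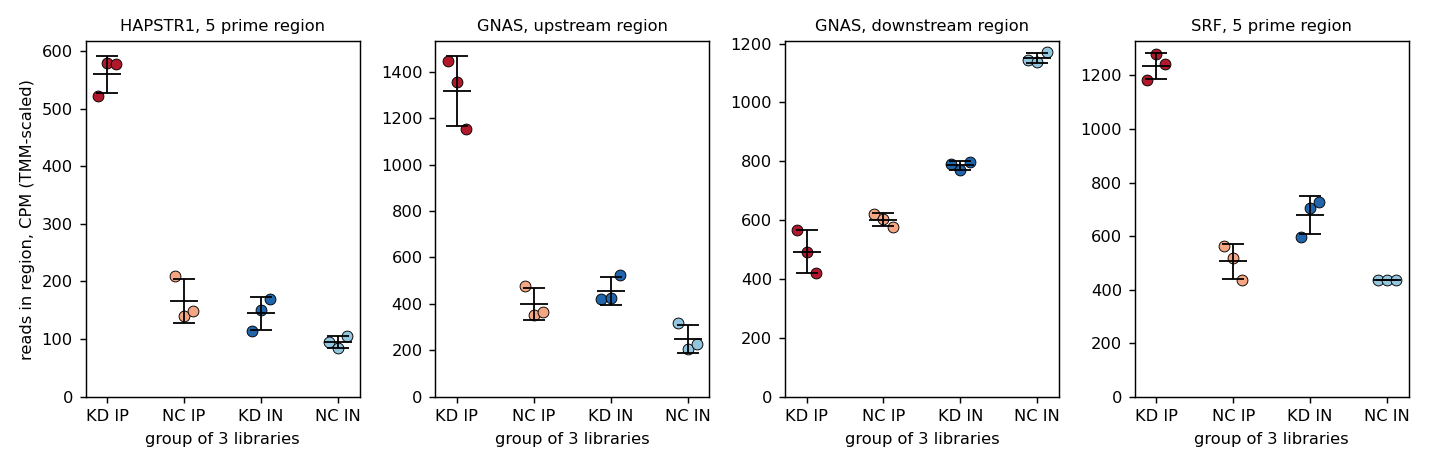
Reads per library in TMM-scaled CPM (vertical axis, linear from 0) for the HAPSTR1 region, both GNAS pairs (widest region of each) and the SRF 5 prime region, in the groups KD IP, NC IP, KD IN and NC IN; points are libraries, bars the mean and SD of 3. KD IP stands far above the rest in HAPSTR1, upstream GNAS and SRF, at 559, 1317 and 1236 CPM on average, but not in downstream GNAS.

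These 3 changes in enrichment compare with a median of 0.08 (quartiles -0.29 and 0.43) over 5113 tested regions. Since they chose the genes, they are given as a description. In the authors' deposited table the log2 change of KD over NC was 1.01 for HAPSTR1 (adjusted p = 0.016), 0.73 and 0.76 for the upstream GNAS pair (adjusted p = 0.048 and 0.039) and 0.53 for SRF (adjusted p = 0.24). That table called 0.351% of all regions higher in KD. The present edgeR fit called 0% in either direction, with 610 regions at an unadjusted p under 0.05, and DESeq2 called 21 regions.

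The change splits into IP and input. Relative to NC, KD IP was higher by 3.36-fold in HAPSTR1, 3.3-fold in upstream GNAS and 2.44-fold in SRF. KD input was higher by 1.52-fold, 1.82-fold and 1.55-fold in the same order. Input was thus also higher in KD in each, and the ratio was not higher through a lower input. In 15.3% of tested regions all KD libraries lay above all NC libraries in both IP and IN, as they did here, so this arrangement was common in the table.

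**Figure D2:**
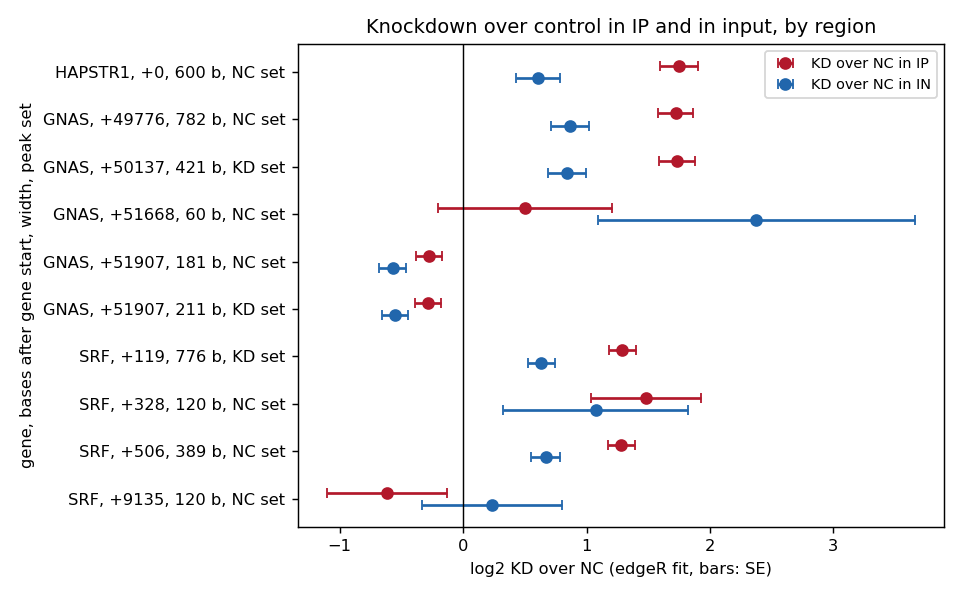
Log2 KD over NC in IP (red) and in input (blue) for the 10 regions tested, with SE bars from the edgeR fit; each row names the gene, the bases from the gene start, the width and the peak set. IP exceeds input in HAPSTR1, both GNAS pairs and the 3 SRF 5 prime regions, and both GNAS downstream regions lie below 0.

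The mean level over IP and input has weights orthogonal to those of the contrast that chose the genes, and it was tested. It uses the same 12 libraries, the KD IP counts among them. The SE of KD over NC in HAPSTR1 was 0.152 in IP and 0.179 in IN, so the contrasts need not be independent. The p values are therefore no separate support for the choice. This mean level was higher in KD by 2.26-fold in HAPSTR1 (log2 1.18 ± 0.12 SE, adjusted p = 5.3e-09 by edgeR's quasi-likelihood test, Benjamini-Hochberg over 5113 regions). In upstream GNAS it was 2.45-fold higher (1.29 ± 0.1, edgeR adjusted p = 1.4e-10) and in 5 prime SRF 1.95-fold higher (0.96 ± 0.08, edgeR adjusted p = 1.5e-10). Each was higher in 6 of 6 KD libraries when set against NC libraries of the same kind, as were 15.3% of tested regions. By this test 26.2% of all regions were higher and 26.8% lower in KD, so a higher level did not set these regions apart. These genes had been listed among the smallest p values of the enrichment change, a choice that favours regions with little spread between libraries, and the level test uses the same spread.

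GNAS downstream moved the other way. The wider region there (211 bases) had 567, 492 and 419 CPM in KD IP, against 620.0, 605 and 577 CPM in NC IP. In input it had 792, 769.5 and 796 CPM in KD, against 1145, 1137 and 1170 CPM in NC. Every KD library lay below every NC library of its kind (28.3% of regions in IP and 24.6% in IN), whereas the upstream region of the same gene had them above. Its mean level fell to 0.75-fold of NC (log2 -0.42 ± 0.07 SE, edgeR adjusted p = 4.6e-05), and that of the narrower region in the pair by 0.42 ± 0.08 (edgeR adjusted p = 5.2e-05). IP over input was below the average peak region in both conditions, 0.63-fold in KD and 0.52-fold in NC, with a change of 0.27 ± 0.15.

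Within each library the reads of the upstream region were set against those of the downstream one, which needs no scaling between libraries. The ratio was 2.55, 2.75 and 2.75 in KD IP, against 0.772, 0.581 and 0.634 in NC IP. It was 0.529, 0.55 and 0.658 in KD IN, against 0.276, 0.18 and 0.194 in NC IN. The upstream region thus outnumbered the downstream one in KD IP alone of the 4 groups. Averaged over IP and IN of the same number, the log2 ratio was 0.31 ± 0.11 in KD and -1.42 ± 0.27 in NC (SD, n = 3 each), 3.32-fold higher in KD. The two-sided exact permutation test gave p = 0.1, the smallest that 3 against 3 allows.

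The same ratio was taken in SRF, the 776-base 5 prime region over the region from 43180404, the second of the 2 ratios computed. It was 111, 143 and 153.8 in KD IP, against 44.2, 34.8 and 28.8 in NC IP, and 39.1, 105.6 and 74.4 in KD IN, against 104.2, 31.4 and 47 in NC IN. The groups stood apart in IP and overlapped in input. The log2 ratio averaged by number was 6.58 ± 0.47 in KD and 5.44 ± 0.56 in NC (SD, n = 3 each), 2.19-fold higher in KD, with p = 0.2 by the two-sided exact permutation test. It rests on 51 reads of the 3 prime region in KD IP, 72 in NC IP, 31 in KD IN and 23 in NC IN. The 5 prime region was picked in the same way as that of GNAS, so this direction is also a description.

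**Figure D3:**
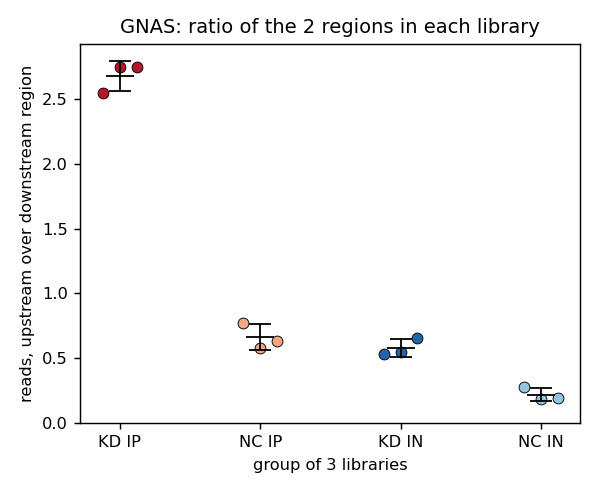
Ratio of reads in the upstream (782 bases) over the downstream (211 bases) GNAS region in each library (points), with mean and SD of 3 (bars), for KD IP, NC IP, KD IN and NC IN on a linear axis from 0. The KD libraries lie above the NC libraries in IP (2.68 against 0.662 on average) and in input (0.579 against 0.217).

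Per length, the 2 GNAS places also ranked differently. In input the downstream region held 3725 CPM per kb in KD IN and 5453 CPM per kb in NC IN. The narrower upstream region held 1060 CPM per kb in KD IN and 588 CPM per kb in NC IN, below the downstream level in both. In IP the upstream density was 3125 CPM per kb in KD, against 940 CPM per kb in NC, and the downstream density 2335 CPM per kb in KD IP, against 2847 CPM per kb in NC IP. The 60-base GNAS region between them was sparse, with 55 reads in KD IP, 36 in NC IP, 13 in KD IN and 2 in NC IN over 3 libraries each. Its level did not pass the test (log2 1.44 ± 0.74 SE, edgeR adjusted p = 0.1) but passed without KD IN replicate 3 (1.73, edgeR adjusted p = 0.036) or NC IN replicate 3 (3.05, edgeR adjusted p = 0.037). With 2 reads in NC IN, no enrichment is given for it.

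The other SRF regions outside the main reads were sparse. The 120-base region near the 5 prime end (43171597 to 43171716) had 172 reads in KD IP, 58 in NC IP, 17 in KD IN and 7 in NC IN. The level there was 2.42-fold higher in KD (log2 1.28 ± 0.43 SE, edgeR adjusted p = 0.016), and without KD IN replicate 3 it was 1.02 and missed the threshold (edgeR adjusted p = 0.077). Near the 3 prime end, the region from 43180404 had 20, 18 and 13 reads in KD IP, against 24, 24 and 24 in NC IP, so every KD IP library lay below every NC IP library in CPM (as in 28.3% of regions). Input there had 15, 7 and 9 reads in KD IN, against 4, 11 and 8 in NC IN. Its log2 level of -0.19 ± 0.37 (SE) did not pass (edgeR adjusted p = 0.7), and a difference was not detectable at this depth. IP over input was 0.88-fold in KD and 1.58-fold in NC, a log2 change of -0.85 ± 0.74 (SE), opposite in sign to the 5 prime region. The last SRF region (from 43180225) had 28, 23, 7 and 2 reads in KD IP, NC IP, KD IN and NC IN, and was the 1 region of the 11 that did not enter the fit.

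Averaged over KD and NC, IP over input was 2.61-fold in HAPSTR1 (log2 1.38 ± 0.12 SE, edgeR adjusted p = 2.7e-10). It was 2.15-fold in upstream GNAS (1.1 ± 0.1, edgeR adjusted p = 2.1e-09) and 1.46-fold in 5 prime SRF (0.54 ± 0.08, edgeR adjusted p = 1.9e-06). Downstream GNAS was lower in IP, at 0.57-fold (-0.8 ± 0.07 SE, edgeR adjusted p = 1.6e-09). In all, 31.8% of regions were higher and 27.1% lower in IP, that is 1624 higher and 1385 lower, which became 2048 and 1000 when libraries were scaled by size alone. HAPSTR1, upstream GNAS and 5 prime SRF passed as higher in both level and IP over input, which 7.63% of regions did. Peaks were called on IP against input, so a higher IP is partly built in. The average also holds the KD ratio, whose rise chose the genes, so passing both is a description of these regions. In NC alone the log2 IP over input was 0.81 ± 0.17 in HAPSTR1, 0.67 ± 0.15 in upstream GNAS and 0.22 ± 0.11 in SRF (SE). The deposited fold enrichment, a value of the peak call by the authors, was 20.3 for HAPSTR1, 14.1 for the 776-base SRF region, 7.07 and 8.47 for the upstream GNAS pair and 3.41 and 2.65 for the downstream pair, against a median of 9.06 over all peaks.

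**Figure D4:**
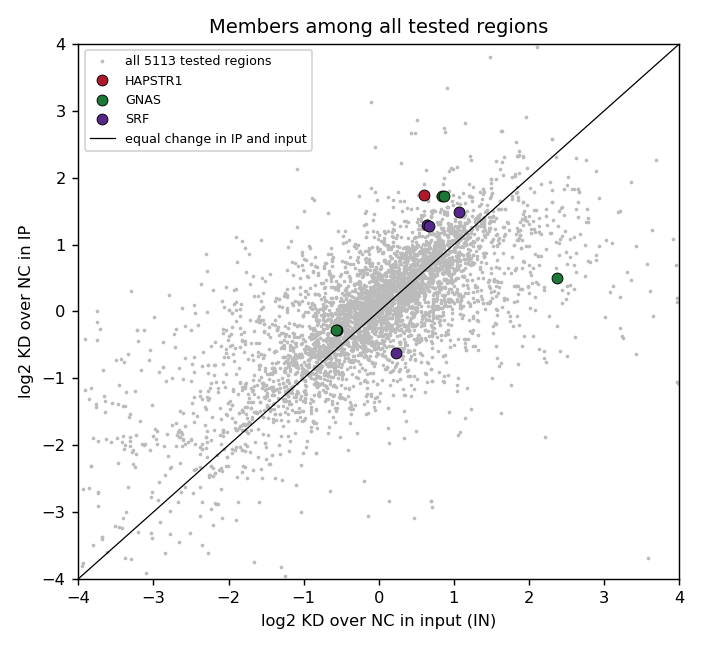
Log2 KD over NC in input (horizontal) against log2 KD over NC in IP (vertical) for 5113 tested regions (grey) and those of HAPSTR1, GNAS and SRF (coloured); the line marks equal change, and 238 regions lie outside the axes at 4. HAPSTR1 (0.6 and 1.75), upstream GNAS (0.86 and 1.72) and 5 prime SRF (0.63 and 1.29) lie above the line.

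By the root mean square difference in log2 CPM over the 12 libraries, each region centred on its own mean, the pattern of upstream GNAS was nearest to RUSC2 (0.26), CTSZ (0.3) and NEK6 (0.31), genes other than the 3 being compared. HAPSTR1 was nearest to ITGB5, an integrin subunit (0.34), RUSC2 (0.37) and MFSD2A (0.38). For SRF the nearest were CXXC5 (0.19), SLAIN2 (0.2) and CHST2 (0.2). HAPSTR1 and GNAS differed from each other by 0.25, GNAS and SRF by 0.38, and HAPSTR1 and SRF by 0.47. The median over all tested regions was 1.13 for HAPSTR1, 1.07 for GNAS and 0.87 for SRF. Likeness over the 12 libraries takes in level as well as enrichment. The log2 change in enrichment was 0.26 in RUSC2, 0.34 in CTSZ and -0.03 in NEK6, beside 0.86 in GNAS. It was 0.80 in ITGB5, 0.28 in the wider RUSC2 region and 0.28 in MFSD2A, beside 1.14 in HAPSTR1. It was 0.54 in CXXC5, 0.30 in SLAIN2 and 0.52 in CHST2, beside 0.65 in SRF.

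Other genes of the Gs and cAMP pathway did not share a direction. Of 43 genes on the list 19 had a region of their own and 9 were tested, of which 4 were higher and 2 lower in mean level in KD, against 26.2% of all tested regions higher and 26.8% lower. Their median log2 level was 0.29, against 0.01 over all regions. AKAP13, an anchoring protein for protein kinase A, was 2.1-fold higher (log2 1.07 ± 0.12 SE, edgeR adjusted p = 5.7e-08). AKAP8 rose 1.38-fold (edgeR adjusted p = 4.4e-05) and the CREB coactivator CRTC2 1.77-fold (edgeR adjusted p = 0.00078). AKAP1 and AKAP9 fell, by 0.46 and 0.83 on the log2 scale (edgeR adjusted p = 5.2e-05 and 0.00013). Their changes in enrichment had a median of 0.02 and reached from -0.92 in CRTC2 to 0.59.

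Among other heterotrimeric G protein subunits, 7 of 24 had a region and 3 were tested, of which 2 were higher in KD and none lower, against 26.2% of all tested regions higher and 26.8% lower. GNA15, a Gq-class subunit of blood cells, had 102 reads in KD IP, 36 in NC IP, 72 in KD IN and 9 in NC IN, 4.27-fold higher in level (edgeR adjusted p = 0.00017). GNAQ was higher as well (edgeR adjusted p = 0.014), but on 2 reads in NC IN, and GNB1 did not pass (log2 0.57 ± 0.3 SE, edgeR adjusted p = 0.11). The log2 change in enrichment was -1.39 ± 0.86 in GNA15 and -0.79 ± 0.6 in GNB1 (SE), and with so few reads neither direction is settled.

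Of 44 SRF cofactors and targets, 18 had a region and 15 were tested, 6 higher and 2 lower in mean level in KD, against 26.2% of all tested regions higher and 26.8% lower. The median log2 level was 0.25. The cytoplasmic actin ACTB averaged 2638 ± 109.9 CPM in KD IP and 1205 ± 24.7 CPM in NC IP, and 5474 ± 149.8 CPM in KD IN and 3172 ± 129 CPM in NC IN (SD, n = 3 each). Its level was 1.94-fold higher (edgeR adjusted p = 1.9e-12). The tropomyosin TPM4 was 2.63-fold higher (edgeR adjusted p = 3.7e-08), the actin severing factor CFL1 1.68-fold (edgeR adjusted p = 0.00075) and TAGLN2 1.32-fold (edgeR adjusted p = 0.012). PFN1, which binds actin monomers, fell by 0.69 on the log2 scale (edgeR adjusted p = 2e-04). FLNA, an actin crosslinker, had 13 reads in KD IP, 602 in NC IP, 0 in KD IN and 561 in NC IN. Changes in enrichment had a median of 0.02 in this list, with 8 of 15 above 0. In the MADS box family, MEF2C alone was tested, 3-fold higher in level (edgeR adjusted p = 3.3e-12) with a change in enrichment of 0.21 ± 0.21 (SE).

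HUWE1, the partner of HAPSTR1, had no peak. Of 13 genes on its list 5 had a region and 4 were tested, 1 higher and 1 lower in KD, against 26.2% of all tested regions higher and 26.8% lower. DDIT4, a stress-induced inhibitor of mTORC1, was 2.39-fold lower in KD (log2 -1.26 ± 0.15 SE, edgeR adjusted p = 1.2e-07), and the survival factor MCL1 was 1.33-fold higher (edgeR adjusted p = 0.019). The mitochondrial fusion factor MFN2 (log2 0.21 ± 0.12 SE, edgeR adjusted p = 0.16) did not pass.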

How the data were processed

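m7G meRIP-seq was measured in 12 libraries. Per the submitters' processing notes, the build was GRCh38 and fastp 0.23.4 was used. How reads were aligned, counted and called as peaks is not given in the sources used here. The authors deposited raw counts per peak region and library, a fold enrichment (ratio of IP over input, equal to the deposited score), p values and adjusted p values of each peak call, and a log2 change in enrichment (KD over NC) with p values. Deposited starts were taken as counted from 0, since 330 equal a RefSeq start minus 1 and 5 equal a start; 1 was added and widths follow.

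Reads in peak regions numbered 907024 to 1888972 per library; these sums are not the sequencing depth, and IP over input is relative to the average peak region. Counting intervals are not given, as replicate spread is. Regions passing filterByExpr (minimum count 10, total 15) were scaled by TMM and fitted on 4 group means in edgeR 4.0.16 (R 4.3.3), with 8 residual degrees of freedom and a threshold of 0.05. On simulated data made from these counts, with 200 of 5113 regions changed, 67% of 2-fold and 95% of 4-fold level changes were recovered. False calls numbered 0 among 162 for level and 11 among 180 for IP over input. In the real data 2708 regions were called in level, so the recovery need not hold there. Lists used 1 region per gene, that with most reads, and the named genes were up to 4 of smallest p in level, then those passing both tests, at most 6 a list. The members, lists and rules were chosen with earlier results of these data known. Alternatives were DESeq2 1.42.0, library size alone, other filters, replicate blocks (1 of them random, in limma 3.58.1) and leaving out each library. One gene named by the rule is not reported here.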

Additional observations from a re-analysis of the deposited data

How the results depend on the processing

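The level and the mean IP over input of the HAPSTR1, upstream GNAS and 5 prime SRF regions kept their direction and their side of the threshold under library size alone, both other count filters, DESeq2, the replicate block and without each library. Scaling by library size moved the median of all regions from 0.22 to 0.45 for IP over input and from 0.08 to -0.04 for the change in enrichment. The change in enrichment of SRF was then 0.52. Over the 12 fits without 1 library it was 0.89 to 1.35 in HAPSTR1 (lowest without KD IN replicate 1), 0.56 to 1.01 in GNAS (lowest without NC IN replicate 1) and 0.47 to 0.73 in SRF. Regions called for this change numbered 0, against 21 with DESeq2, 45 without the count filter, 16 with a replicate block within condition and 0 to 1 without 1 library. The replicate block called 2615 regions in level, against 2708 without it. IP and IN libraries of 1 number correlated in their deviations from group means at 0.05 to 0.06 in KD and -0.02 to 0.07 in NC over all regions, and above 100 CPM at 0.12 to 0.38 in KD and 0.01 to 0.29 in NC. Above 100 CPM, libraries of unlike numbers correlated at -0.34 to 0.01 in KD and -0.25 to 0.12 in NC. In KD every pair of the same number stood above every unlike pair, while in NC that of replicate 3 did not. Between KD IP and NC IP, libraries of unlike numbers ranged from -0.382 to 0.404 above 100 CPM. Correlations of this size thus also occurred between libraries that share neither condition nor number. Pairing may hold but is not established. The level test takes these libraries as independent, while the within-library ratios were averaged by number. With IP and IN of 1 number as a random replicate block (limma voom, consensus correlation 0.095, chosen after seeing the data) 2598 regions were called in level, and HAPSTR1 (adjusted p = 6.7e-08), upstream GNAS (4.2e-10) and SRF (2.1e-10) passed. Level could not be fitted with a fixed block within condition. All 11 regions stayed with 50% overlap or peak calls at adjusted p under 0.05 or 0.01. Low reads limit the 60-base GNAS and the 3 prime SRF regions.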
